A study of Apis mellifera with 12 samples.

Results

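Circular RNAs (circRNAs) are loops of RNA closed by back-splicing, in which a downstream splice donor is joined to an upstream splice acceptor. One gene can give many circRNAs, because one donor or acceptor can pair with several partners, and the loops lack free ends and so resist exonucleases that degrade linear RNA. In a honey bee queen the ovary activates when she begins to lay, and it then holds growing oocytes with their nurse and follicle cells, while virgin ovaries lack advanced oocytes.

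The members described here are ovary circRNAs of honey bee (Apis mellifera) queens that were listed widely after activation and seldom in virgins. They were chosen by their read counts: a member has a count above 0 in at least 2 of 3 libraries in each of the laying, caged and released groups, and in at most 1 of 3 virgin libraries. The rule found 377 members among 20244 circRNAs, which is 1.86%, after 19 circRNAs of 2 stretches with very many circRNAs were left out (LG2, 4622669 to 4807227, and LG3, 1090193 to 1190378, both plus strand). The working description of such circRNAs as absent in virgins holds for part of them only: 130 members were listed in 0 virgin libraries and 247 (65.5%) in 1 virgin library.

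The 12 libraries were made from rRNA-depleted and RNase R-treated RNA of ovaries. They come from virgin queens, normally laying queens, queens inhibited from laying by 7 days of caging, and queens let out after such caging and sampled once they laid again, with 3 libraries in each group. Sampling was on day 7 for caged and on day 8 for released queens. The sources used here give neither strain nor age in days, and nothing says that the 3 samples of a group came from separate queens, so p-values measure the spread between these samples, which may be technical. The table names no genes, so the ovary label could not be checked against marker genes.

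Levels are given as CPM, a circRNA's reads divided by all circRNA reads of its library and multiplied by 1000000. The libraries held 66487 to 206697 circRNA reads, and no count of 1 occurs in the table, so a listing at 0 is not proof of absence. No fold change is given against virgin ovaries, since the rule used that contrast.

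Listing of the members differed among the virgin libraries as well as between groups. Virgin replicate 1, with 201414 reads, listed 159 members. Virgin replicate 3 (119117 reads) listed 56 and virgin replicate 2 (66487 reads) listed 32. The laying libraries listed 330, 355 and 268 members, the caged libraries 352, 331 and 332, and the released libraries 306, 344 and 306. Within each of the 4 groups the deepest library listed most members. Among the 9 laying, caged and released libraries, laying replicate 3, with 89106 reads, listed fewest. All 9 libraries of these 3 groups listed 99 members, and 30 of the 99 were also listed in 0 virgin libraries.

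The members took a small share of circRNA reads. That share was 0.447%, 0.162% and 0.223% in the virgin libraries. It was 1.84%, 2.12% and 1.79% in the laying libraries, 1.58%, 1.64% and 1.66% in the caged libraries, and 1.94%, 1.54% and 1.59% in the released libraries. The rule fixed the gap between virgin and the rest. It did not set the other groups against each other, but it asked for listings in each, and their depth differed. The laying libraries held 396431 reads in all and the caged ones 553316, so the rule can bear on the order of these groups. The group means were 1.92% ± 0.178 for laying, 1.62% ± 0.0434 for caged and 1.69% ± 0.216 for released ovaries (SD, n = 3 each). All 3 laying libraries lay above all 3 caged ones, while the released libraries overlapped both groups. This order was not tested, and abundant members weigh more in such a summed share. The highest laying mean of a member was 925 CPM and the highest caged mean 357 CPM. Laying had the highest mean of these 3 groups for 149 members (39.5%). The same held for 31.8% of circRNAs listed in at least 2 of 3 libraries of all 4 groups. In RNA of whole tissue, fewer cells of a type and less RNA per cell cannot be told apart.

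**Figure D1:**
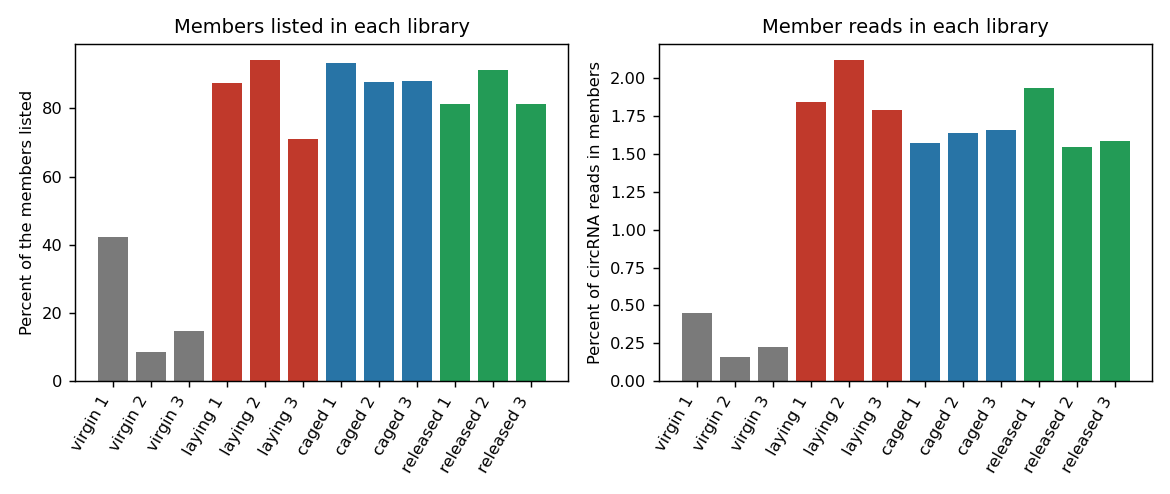
Each bar is one library: the left panel gives the percent of the 377 members listed there, the right panel the percent of its circRNA reads that fell on members. The virgin libraries reach 42.2% of members at most and the other libraries 71.1% to 94.2%, with 0.162% to 0.447% of reads against 1.54% to 2.12%.

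The virgin depth limits what a listing at 0 shows. If each member had its mean level of the 9 laying, caged and released libraries in virgin ovaries too, the 3 virgin libraries together would hold a median of 13.0 reads of it, from 3.97 reads upward. This expected number was under 10 reads for 130 members and over 20 reads for 92, and 26 of these 92 were listed in 0 virgin libraries. In virgin replicate 2 alone it was under 2 reads, the smallest count in the table, for 163 members. For those members a lower level was not detectable at this depth in that library.

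Most members were scarce. Their mean CPM over the 9 libraries ran from 10.2 to 515 with a median of 33.6, and it exceeded 100 for 31 members and stayed under 20 for 67. Circular RNAs listed in at least 2 of 3 libraries in all 4 groups (2270 outside the same 2 stretches) had a median of 93.5 CPM. Among the 247 members listed in 1 virgin library, that library's value ran from 9.93 to 263 CPM with a median of 24.8 CPM, and it rested on 2 or 3 reads for 114 of them. It lay above the member's own mean over the 9 libraries for 88, and for 6 members the mean over all 3 virgin libraries did so too.

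The member with the highest mean, ame_circ_0005652 (LG14, 8080453 to 8080751, plus strand), is short and shares neither end with another circRNA. It was at 179 CPM in virgin replicate 1 and listed at 0 in the other virgin libraries. Laying libraries gave 367, 1374 and 1032 CPM, caged ones 324, 0 and 204 CPM, and released ones 442, 665 and 225 CPM. The laying libraries all lay above the caged ones, and the released values overlapped both groups.

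The second, ame_circ_0002692 (LG11, 1468858 to 1470704, minus strand), held 90.2 CPM in virgin replicate 2 and was listed at 0 in the other 2. It was at 292, 264 and 404 CPM in laying, 469, 311 and 289 CPM in caged, and 122, 165 and 441 CPM in released libraries. These 3 groups overlapped, with both the highest and the lowest value in libraries of queens that had been caged.

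The third, ame_circ_0012762 (LG3, 3692605 to 3693623, minus strand), was listed at 0 in all virgin libraries. Laying libraries gave 367, 351 and 348 CPM, a spread of 10.5 (SD) around 355 CPM. In caged libraries it was at 67.7, 211 and 131 CPM, all under the laying values, and in released libraries at 677, 79.3 and 81.1 CPM. Released replicate 1 alone exceeded every laying library.

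The next, ame_circ_0000984 (LG10, 1313918 to 1314296, plus strand), was also listed at 0 in all virgin libraries. It was at 525, 569 and 146 CPM in laying, 150, 135 and 131 CPM in caged, and 207, 61.0 and 135 CPM in released libraries. Laying replicates 1 and 2 stood above all other libraries, and laying replicate 3 was within the range of the rest.

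A single library carried much of the level of ame_circ_0003335 (LG12, 11227649 to 11228084, plus strand). It reached 1043 CPM in released replicate 1 and was at 0 and 27.0 CPM in the other released libraries. The laying values were 0, 385 and 247 CPM, the caged values 33.9, 58.7 and 11.3 CPM, and virgin replicate 1 held 14.9 CPM.

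More even were ame_circ_0009223 (LG1, 21752928 to 21757595, minus strand) and ame_circ_0009324 (LG1, 22176287 to 22177179, minus strand), both listed at 0 in every virgin library. The first was at 267 ± 66.7 CPM for laying, 178 ± 38.7 CPM for caged and 150 ± 89.7 CPM for released ovaries (SD, n = 3 each). The second was at 315, 230 and 258 CPM in laying, 140, 176 and 142 CPM in caged, and 207, 147 and 135 CPM in released libraries, so that the laying libraries lay above all others.

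The rest of the 10 members with the highest means were ame_circ_0004138 (LG13, 1645518 to 1646304, plus strand), ame_circ_0015833 (LG6, 10460647 to 10461742, plus strand) and ame_circ_0013872 (LG4, 4139475 to 4194650, plus strand). Across the 9 libraries ame_circ_0004138 ranged from 62.9 to 583 CPM, ame_circ_0015833 from 135 to 301 CPM and ame_circ_0013872 from 85.4 to 329 CPM. The first was at 0 in all virgin libraries, while ame_circ_0015833 held 49.6 CPM in virgin replicate 1 and ame_circ_0013872 held 50.4 CPM in virgin replicate 3. Together the 10 made up 14.2% of the members' summed mean level, so no few circRNAs dominated that sum. Their part in differences between groups was not worked out.

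**Figure D2:**
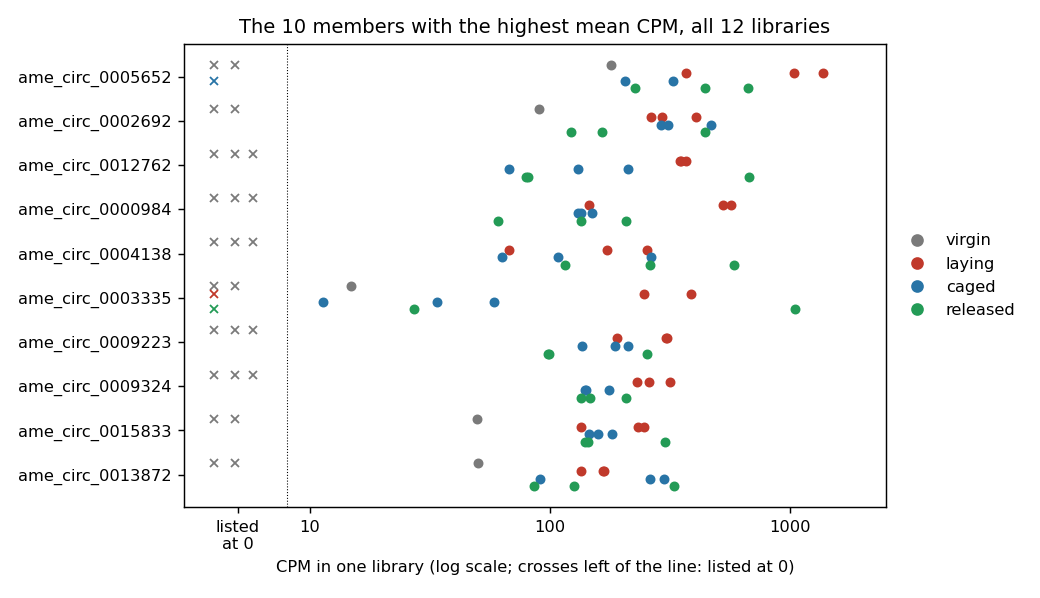
Points give the CPM of the 10 members with the highest mean in each of 12 libraries on a log scale, coloured by group, and crosses left of the dotted line mark libraries where the member was listed at 0. Of the rows, 5 hold crosses for all 3 virgin libraries, and ame_circ_0003335 spreads from 11.3 to 1043 CPM among the libraries that list it.

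Next come the members with the highest minimum among the 30 listed in all 9 libraries and in 0 virgin libraries. Besides ame_circ_0009324, ame_circ_0009223 and ame_circ_0012762 these were ame_circ_0011809 and ame_circ_0005569. The circRNA ame_circ_0011809 (LG2, 4940177 to 4947971, plus strand) was at 112, 97.7 and 123 CPM in laying, 121, 117 and 90.8 CPM in caged, and 94.0, 79.3 and 99.1 CPM in released libraries. The range of ame_circ_0005569 (LG14, 7567149 to 7594551, minus strand) was 77.4 to 172 CPM, with group means of 121 ± 44.8, 108 ± 39.9 and 117 ± 8.10 CPM in the same order (SD, n = 3 each). In both the 3 groups overlapped.

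At the edge of the rule, the members with the highest virgin value were ame_circ_0000638 (scaffold GL633275.1, 63201 to 69489, minus strand), ame_circ_0003225 (LG11, 967953 to 968398, plus strand) and ame_circ_0005652. In virgin replicate 1 ame_circ_0000638 held 263 CPM, against 22.5 to 494 CPM in the laying, caged and released libraries. The circRNA ame_circ_0003225 held 253 CPM there, above each of its laying values of 150, 201 and 157 CPM, and 0 to 67.1 CPM in caged and released libraries.

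Just outside the rule, 463 circRNAs failed only by being listed in 2 virgin libraries. The most abundant of them were ame_circ_0000169 (scaffold GL630384.1, 16498 to 17191, plus strand), ame_circ_0000648 (scaffold GL634653.1, 5432 to 6423, minus strand) and ame_circ_0013160 (LG3, 8921683 to 8960255, minus strand). They had means of 1271, 764 and 466 CPM over the 9 libraries, where the highest member had 515 CPM, and virgin values of at most 256, 33.6 and 154 CPM. Another 317 circRNAs failed only because 1 of the 3 activated groups listed them in 1 library, among them ame_circ_0014681 (LG5, 12849050 to 12849566, minus strand) at a mean of 198 CPM, which released replicate 1 carried with 1372 CPM. Of the same kind were ame_circ_0015652 (LG5, 8749187 to 8749678, minus strand) and ame_circ_0009379 (LG1, 23020896 to 23036140, minus strand), at means of 178 and 138 CPM.

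As a description of how often such a pattern of listings occurs, the same numbers were asked of the other groups in turn. Listing in at most 1 of 3 laying libraries and in at least 2 of 3 of each other group held for 244 circRNAs, and the same with released and with caged as the seldom-listed group held for 175 and 64. Of these, 44, 30 and 4 were listed in 0 libraries of that group, against 130 of the 377 members. The 3 virgin libraries held 387018 reads in all, close to the laying (396431) and released (381296) totals and below the caged total (553316). Depth was spread more unevenly over the virgin libraries, from 66487 reads, the fewest of all 12, to 201414, so group totals do not match the depth of the single libraries that the rule counts.

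To see whether the members, once listed after activation, went with egg laying itself, caged, laying and released ovaries were compared. The rule did not contrast these groups, but it asks for presence in each, which favours circRNAs that differ little among them. Of the 377 members, 283 passed the filter on low counts in a fit of all 3215 circRNAs that passed it. None was called in caged vs laying, released vs caged or released vs laying (edgeR quasi-likelihood test, Benjamini-Hochberg adjusted p under 0.05 over all circRNAs tested). Over all circRNAs tested, 0.0311% were called in caged vs laying, and 0% in either comparison of released ovaries. DESeq2 also called 0 members in each. In caged vs laying it gave an adjusted p to 17 of the 283 members only and called 2.33% of the 1158 circRNAs that had one. In released vs laying it called 0.0311% of 3214, and in released vs caged 0%.

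At an unadjusted p under 0.05 stood 8 members in caged vs laying, 3 in released vs caged and 6 in released vs laying, which are 2.83%, 1.06% and 2.12% of those tested. Over all circRNAs tested these shares were 8.71%, 6.35% and 7.19%. The members' median log2 fold change was -0.13 in caged vs laying, -0.11 in released vs caged and -0.24 in released vs laying, beside 0.07, -0.06 and 0.02 over all circRNAs tested. The comparisons share libraries pairwise.

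These comparisons were imprecise for members. The whole 95% interval lay within 4-fold up or down for 42 of 283 members (14.8%) in caged vs laying. It did so for 41 in released vs caged and for 38 in released vs laying. For all circRNAs tested in caged vs laying that share was 46.3%. The interval lay within 2-fold for 0, 1 and 0 members, so differences of that size were not detectable for nearly all of them.

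The members with the smallest unadjusted p in caged vs laying were ame_circ_0000984, ame_circ_0013110 and ame_circ_0005652, all with lower values in caged ovaries. The fitted log2 fold change of ame_circ_0000984 was -1.60 (SE 0.49), with an edgeR adjusted p of 0.276. For ame_circ_0005652 it was -2.35 (SE 0.82, adjusted p = 0.332), a value that rests on caged libraries at 324, 0 and 204 CPM. Without a filter on low counts ame_circ_0005652 was called (edgeR, adjusted p = 1.29e-05), while DESeq2 did not call it (adjusted p = 0.598).

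The circRNA ame_circ_0013110 (LG3, 7821870 to 7822316, minus strand) came among the first 3 in 2 of the comparisons. It was at 97.4, 109 and 22.4 CPM in laying, 19.4, 0 and 11.3 CPM in caged, and 150, 97.6 and 72.1 CPM in released libraries, with 9.93 CPM in virgin replicate 1. Caged libraries lay below all laying and released ones. Its log2 fold change was -2.80 (SE 0.91, edgeR adjusted p = 0.276) in caged vs laying and 3.15 (SE 0.91, edgeR adjusted p = 0.595) in released vs caged, neither past the threshold, and both rest on the same caged libraries with at most 4 reads each.

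In released vs caged the next were ame_circ_0003335, at 3.20 on the log2 scale (SE 1.25, edgeR adjusted p = 0.741), and ame_circ_0014117 (LG4, 7759374 to 7760532, minus strand). The first value turned to -1.58 without released replicate 1, the library with 1043 CPM. With no filter on low counts ame_circ_0003335 was called (edgeR, adjusted p = 0.000145), while DESeq2 did not call it (adjusted p = 0.998). The circRNA ame_circ_0014117 was at 106, 106 and 255 CPM in caged and 0, 104 and 18.0 CPM in released libraries (log2 fold change -1.83, SE 0.83, edgeR adjusted p = 0.745). Without 1 library that log2 fold change ranged from -4.07, without released replicate 2, to -1.31, without caged replicate 3. In laying libraries it was at 135, 46.0 and 33.7 CPM, and it was listed at 0 in all virgin libraries.

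In released vs laying the first were ame_circ_0000984 (log2 fold change -1.76, SE 0.51, edgeR adjusted p = 0.397), ame_circ_0005556 (LG14, 7527140 to 7528043, plus strand) and ame_circ_0019840 (LG9, 5780351 to 5780783, plus strand). The circRNA ame_circ_0005556 was at 262, 167 and 146 CPM in laying and 84.6, 79.3 and 18.0 CPM in released libraries, with no overlap. For ame_circ_0019840 the laying values of 90.0, 155 and 78.6 CPM also lay above the released values of 18.8, 54.9 and 27.0 CPM. Both had an edgeR adjusted p above the threshold, 0.602 and 0.660.

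**Figure D3:**
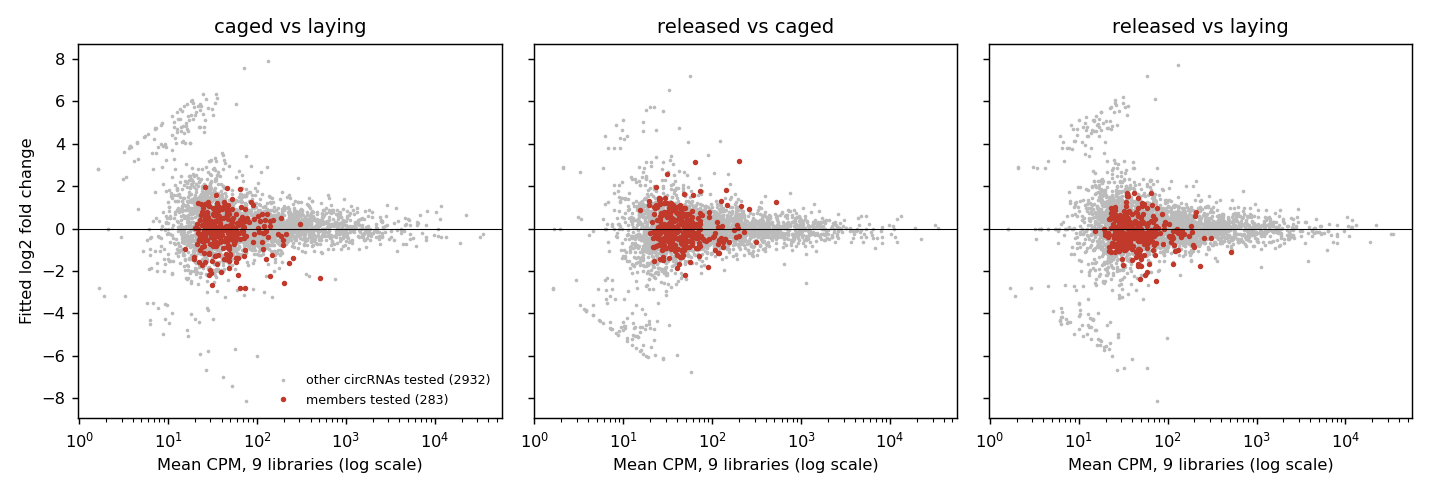
Each point is a circRNA of the fit of 3215, with its mean CPM over the 9 laying, caged and released libraries on a log x axis and its fitted log2 fold change on the y axis, and the 283 members are red. Members sit towards the low end of the level axis, and 0 of them were called in any panel.

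The members had a longer median span than circRNAs listed in all 4 groups. The span between the back-spliced ends ran from 164 to 92656 nt with a median of 2620 nt, against 1809 nt for the 2270 circRNAs listed in all groups and 802 nt for the whole table. Spans over 10000 nt were found for 87 members (23.1%) and for 16.0% of those listed in all groups, and spans of up to 500 nt for 17.2% and 19.9%. A span counts introns between the ends, so it is not the length of the RNA, and the difference in span was not tested.

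The members' median span was the longer one at each level. Where the mean over the 9 libraries was from 20 to below 40 CPM, the median span was 2458 nt for 162 members and 2023 nt for 440 circRNAs listed in all groups. From 10 to below 20 CPM it was 2978 nt for 67 members against 1264 nt for 88, from 40 to below 80 CPM 2635 nt for 111 against 2023 nt for 506, and from 80 CPM upward 2625 nt for 37 against 1701 nt for 1235. The 130 members listed in 0 virgin libraries had a median of 2716 nt and the other 247 a median of 2550 nt.

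The longest members were ame_circ_0007775 (LG16, 6919774 to 7012430, plus strand; 92656 nt), ame_circ_0002137 (LG11, 11659094 to 11725461, minus strand; 66367 nt) and ame_circ_0013872 (55175 nt). The shortest were ame_circ_0019207 (LG8, 8553987 to 8554151, minus strand; 164 nt), ame_circ_0019342 (LG8, 994521 to 994699, plus strand; 178 nt) and ame_circ_0004402 (LG13, 3526620 to 3526799, plus strand; 179 nt). Among the long ones, ame_circ_0002137 held 92.3 CPM in virgin replicate 3 and 160, 176 and 176 CPM in caged libraries, between 0 and 314 CPM in laying and between 42.7 and 188 CPM in released ones. The short ame_circ_0019207 was at most at 28.2 CPM in the 9 libraries and ame_circ_0004402 at most at 110 CPM. The level of ame_circ_0019342 was higher in virgin replicate 3, at 33.6 CPM, than in any of the 9 libraries.

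**Figure D4:**
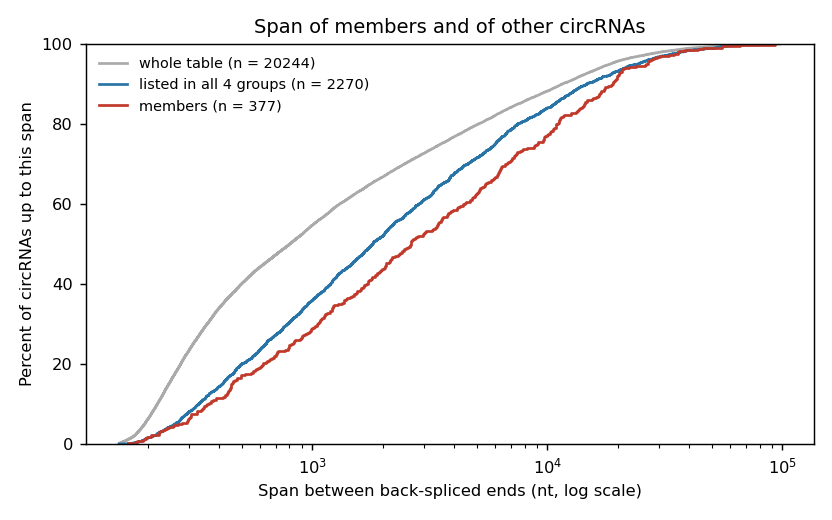
Curves give the percent of circRNAs with a span up to the value on the log x axis, for members, for circRNAs listed in all 4 groups and for the whole table. The members' curve lies to the right of both others, with medians of 2620, 1809 and 802 nt.

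Most members shared a back-splice end with another circRNA. An exactly equal start or end on the same strand was found for 317 of 377 members (84.1%), and for 90.3% of circRNAs listed in all groups and 59.0% of the whole table. Of the members with a mean from 20 to below 40 CPM the share was 82.7%, against 85.9% of circRNAs listed in all groups at that level. Both ends were shared by 175 members (46.4%), and 60 shared neither.

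Some members shared ends with each other. There were 18 starts and 18 ends that belonged to 2 or more members, which took in 71 of the 377 members. The same was not counted for other sets of circRNAs. The start at LG13 4968638 (plus strand) served 3 of them, ame_circ_0004597, ame_circ_0004598 and ame_circ_0004599, with ends at 4973832, 4975246 and 4978223. Their levels were low, at 28.2 to 90.8 CPM for ame_circ_0004597, 0 to 68.1 CPM for ame_circ_0004598 and 0 to 29.3 CPM for ame_circ_0004599 over the 9 libraries.

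Where a pair of members used one start, the levels could be far apart. The start of ame_circ_0012762 was also that of ame_circ_0012763, which ends at 3707295 and was at 0, 63.2 and 78.6 CPM in laying libraries, where ame_circ_0012762 was near 355 CPM. Likewise ame_circ_0000985, which shares the start of ame_circ_0000984 and ends at 1319307, was at 45.0, 69.0 and 22.4 CPM in laying libraries and listed at 0 in all virgin libraries. At LG2 13861938 (minus strand) start ame_circ_0011207, at 165, 149 and 168 CPM in laying and 9.68, 141 and 28.4 CPM in caged libraries, and ame_circ_0011209, at 105, 46.0 and 44.9 CPM and 58.1, 41.1 and 56.7 CPM.

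The members lay in 294 loci, a locus being a run of circRNAs with overlapping spans on one strand, and 47 members were the only circRNA of their locus. In 60 loci there were 2 or more members. For 267 members the locus also held a non-member listed in at least 2 virgin libraries, so for these the locus itself was not silent in virgin ovaries.

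The locus with most members, on LG15 from 6365274 to 6391780 (minus strand), held 9 members among 49 circRNAs. Its members ame_circ_0006428, ame_circ_0006436, ame_circ_0006437, ame_circ_0006452, ame_circ_0006453, ame_circ_0006458, ame_circ_0006465, ame_circ_0006468 and ame_circ_0006471 summed to 65.0 ± 77.2 CPM for virgin, 307 ± 34.1 CPM for laying, 234 ± 65.3 CPM for caged and 253 ± 71.7 CPM for released ovaries (SD, n = 3 each). The other circRNAs of the locus summed to 10079 ± 1844 CPM for virgin, 12840 ± 999 CPM for laying, 11581 ± 4310 CPM for caged and 11416 ± 2467 CPM for released ovaries. The members were thus a minor part of a locus with a high level in every group, virgin included.

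On LG4 from 4072882 to 4194650 (plus strand) 4 of 31 circRNAs were members, ame_circ_0013855, ame_circ_0013872, ame_circ_0013874 and ame_circ_0013876. The other circRNAs there were at 2344 ± 653 CPM in virgin against 3948 ± 472 CPM in laying ovaries (SD, n = 3 each). On LG13 from 1614531 to 1680693 (plus strand) the members ame_circ_0004133, ame_circ_0004138 and ame_circ_0004147 summed to 248 ± 91.5 CPM in laying ovaries, beside non-members at 1255 ± 219 CPM in virgin against 3480 ± 893 CPM in laying ovaries. On LG2 from 13857015 to 13910062 (minus strand) ame_circ_0011204, ame_circ_0011207 and ame_circ_0011209 summed to 336 ± 76.8 CPM in laying ovaries, beside non-members at 989 ± 102 CPM in virgin against 2624 ± 271 CPM in laying ovaries. Other loci also held 3 members, and these 2 were taken for their level.

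Non-members that start or end exactly where a member does are called partners here. They have the same deposited position at that end, and their own counts did not choose the members. Some differ from the member by only a few nt at the other end. Whether such pairs are separate junctions was not tested. There were 1033 partners for 311 members, with a median of 3 and at most 15 for a member, while 66 members had none. Both ends were used by partners for 165 members, the start alone for 75 and the end alone for 71. For 217 members (57.6%) at least 1 partner was listed in 2 or more virgin libraries. Of the 1033 partners, 380 were listed in at least 2 virgin libraries, and 311 were listed in only 1 library of the series. These shares were not worked out for other sets of circRNAs.

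The end positions of members were therefore often also ends of other circRNAs listed in virgin ovaries. Partners took 14.5%, 13.8% and 14.2% of reads in the virgin libraries and between 20.3% and 22.5% in the other 9 libraries. The group means were 14.2% ± 0.364 for virgin, 21.0% ± 0.448 for laying, 21.6% ± 1.18 for caged and 21.0% ± 0.390 for released ovaries (SD, n = 3 each), and the virgin libraries lay below all others. Abundant partners weigh more in such a summed share. Among members with partners, the median summed partner level was 56.8 CPM in virgin against 71.1 CPM in laying ovaries. That sum was higher in laying ovaries for 189 members and lower for 106. For 178 members the summed virgin level of the partners was above the member's own mean over the 9 libraries. In the 9 libraries the partners' sum exceeded the member's level for 191 members and was over 10 times as high for 86.

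Of the partners, 348 passed the filter on low counts, and 81 of them (23.3%) rose and 13 (3.74%) fell in laying vs virgin ovaries (edgeR quasi-likelihood test, adjusted p under 0.05). Leaving out 1 library changed the number that fell to 7 without laying replicate 1 or virgin replicate 3, and 8 without laying replicate 3 or virgin replicate 1. Over all 3215 circRNAs tested 12.5% rose and 10.3% fell. Among the 2584 tested that were neither members nor partners, 227 (8.78%) rose and 319 (12.3%) fell. The median log2 fold change was 0.67 for partners, 0 for all tested and -0.27 for those 2584. Being non-members, partners exclude by definition the circRNAs that the rule took for their scarcity in virgins. They were also reached through members that the rule took for listings in laying and few in virgin ovaries. That choice can itself favour partners that rise, so these shares are a description. The 3215 include the tested members, whose laying vs virgin contrast the rule used. The difference between partners and other circRNAs was not tested.

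**Figure D5:**
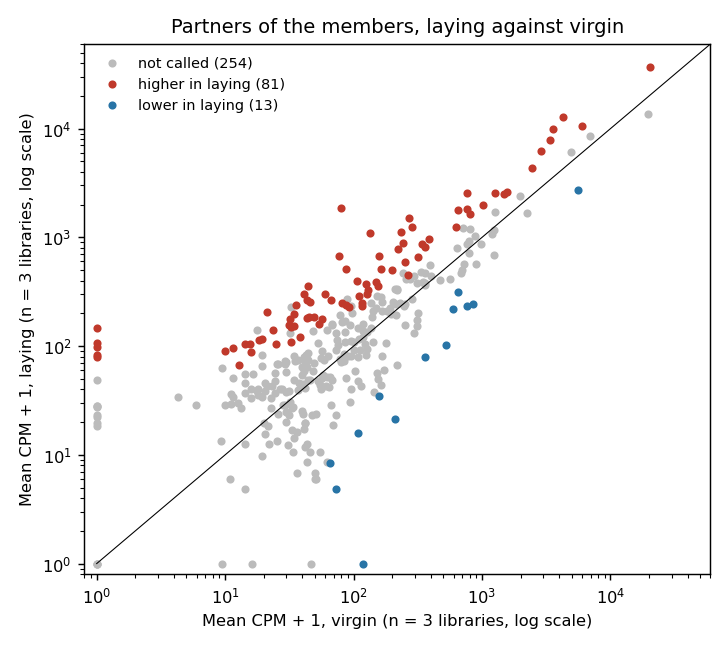
Each point is one of 348 tested partners, with its mean CPM + 1 in virgin ovaries on the x axis and in laying ovaries on the y axis, both on log scales, and the line marks equal levels. Red points (81) were called higher and blue points (13) lower in laying ovaries. Most of these 348 tested partners, which passed the filter on low counts, lie well above 10 CPM in virgin ovaries.

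The 4 partners with the smallest p, named after their values were seen, all rose. The circRNA ame_circ_0019528 (LG9, 10843189 to 10843584, plus strand) was at 78.4 ± 27.5 CPM in virgin against 1857 ± 227 CPM in laying ovaries (SD, n = 3 each), with a log2 fold change of 4.73 (SE 0.34, edgeR adjusted p = 2.95e-08). Its start is also that of the members ame_circ_0019529 and ame_circ_0019526, at 63.4 ± 36.1 and 28.9 ± 5.42 CPM in laying ovaries, and both were listed at 0 in all virgin libraries.

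The partner ame_circ_0004973 (LG14, 1714098 to 1717857, plus strand) rose from 270 ± 49.3 to 1498 ± 343 CPM (SD, n = 3 each; log2 fold change 2.62, edgeR adjusted p = 1.34e-06). The member ame_circ_0004978 has the same start and an end at 1733063, and was at 137 ± 53.8 CPM for laying, 151 ± 23.0 CPM for caged and 71.6 ± 22.6 CPM for released ovaries. A second member, ame_circ_0004974, ends only 4 nt after ame_circ_0004973, at 1717861, and was at 10.7 ± 9.38 CPM in laying ovaries, with no virgin library listing it.

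The partner ame_circ_0002247 (LG11, 12386243 to 12388251, minus strand) rose from 4298 ± 209 to 12698 ± 473 CPM (SD, n = 3 each; log2 fold change 1.72, edgeR adjusted p = 5.15e-06). The member with the same end, ame_circ_0002245, starts at 12379095 and was at 26.5 ± 23.5 CPM in laying ovaries. On LG16 the partner ame_circ_0007771 (6919774 to 6920989, plus strand) went up from 134 ± 18.5 to 1104 ± 366 CPM (a log2 fold change of 3.22, edgeR adjusted p = 3.14e-06), and it shares its start with ame_circ_0007775.

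Of the 13 partners that fell, ame_circ_0001626 had the smallest p and ame_circ_0004445 was also picked after its values were seen. The partner ame_circ_0001626 (LG10, 7099302 to 7100185, plus strand) fell from 856 ± 269 to 242 ± 58.1 CPM (SD, n = 3 each; log2 fold change -1.68, edgeR adjusted p = 0.00110). The member with the same end, ame_circ_0001622, was at 25.1 ± 43.4 CPM in virgin against 12.5 ± 11.4 CPM in laying ovaries. Its mean was thus not higher in laying than in virgin ovaries, and virgin replicate 2 alone, with 5 reads, holds its virgin level. The partner ame_circ_0004445 (LG13, 4054705 to 4056197, plus strand) fell from 359 ± 66.1 to 78.1 ± 42.9 CPM (log2 fold change -2.04, edgeR adjusted p = 0.00432). The member ame_circ_0004443, with the same start and an end at 4055129, was at 8.27 ± 14.3 CPM in virgin against 40.2 ± 10.6 CPM in laying ovaries, a gap that the rule chose.

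The 5 members whose partners were most abundant in virgin ovaries were at 44.4 CPM or less over the 9 libraries. The member ame_circ_0000150 (scaffold GL630373.1, 79029 to 79598, minus strand), at 31.2 CPM over the 9 libraries, starts where ame_circ_0000149 does, which was at 20476 ± 1570 CPM in virgin against 37227 ± 2965 CPM in laying ovaries (SD, n = 3 each) and ends 14 nt earlier, at 79584. The member ame_circ_0009150 (LG1, 21223687 to 21228686, minus strand) was at 17.6 CPM over the 9 libraries and shares its end with ame_circ_0009157, at 19516 ± 1985 CPM in virgin against 13514 ± 1456 CPM in laying ovaries, a difference that was not called (log2 fold change -0.37, edgeR adjusted p = 0.207). For ame_circ_0019207, at 11.9 CPM, 6 partners summed to 11987 ± 1033 CPM in virgin against 22446 ± 2938 CPM in laying ovaries. The members ame_circ_0006428 and ame_circ_0006436 share their end with ame_circ_0006440 (LG15, 6369624 to 6372369, minus strand), at 6913 ± 2828 CPM in virgin against 8491 ± 857 CPM in laying ovaries.

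Other members had scarce partners. The partners of ame_circ_0012762 summed to 0 CPM in virgin against 3.83 ± 6.64 CPM in laying ovaries, and those of ame_circ_0009324 to 0 CPM and 27.5 ± 14.0 CPM (SD, n = 3 each). The single partner of ame_circ_0009223, ame_circ_0009224 (LG1, 21752928 to 21761992, minus strand), reached 40.1 ± 13.5 CPM for virgin, 16.3 ± 19.2 CPM for laying and 7.83 ± 13.6 CPM for caged ovaries, and no released library listed it. For ame_circ_0005569 the partner ame_circ_0005568 (LG14, 7567149 to 7567364, minus strand) was at 29.8, 30.1 and 0 CPM in virgin libraries and listed at 0 in all others. In these last 2 pairs the member was listed at 0 in every virgin library while the partner had its highest group mean there. The partners' levels were low, and for ame_circ_0009224 laying vs virgin was not called (log2 fold change -0.997, SE 1.61, edgeR adjusted p = 0.705). In all, 29 of the 1033 partners were listed in at least 2 virgin libraries and in at most 1 library of each other group. The share over all circRNAs was not worked out, so the count is a description only.

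Some members differ from another circRNA of the same strand by at most 5 nt at either end. This held for 14 members, and for 4 of them the near-identical circRNA was listed in at least 2 virgin libraries. The member ame_circ_0007775 was at 285, 328 and 0 CPM in laying, 0, 70.4 and 68.1 CPM in caged and 254, 97.6 and 171 CPM in released libraries, and at 0 in virgin ones. The circRNA ame_circ_0007767, whose start is 2 nt before that of ame_circ_0007775 and whose end is the same, was at 75.5 ± 68.6 CPM in virgin against 672 ± 287 CPM in laying ovaries (SD, n = 3 each). For ame_circ_0003199 the near-identical ame_circ_0003195, with a start 4 nt earlier, was at 77.4 ± 36.8 CPM in virgin ovaries. Whether such pairs are separate junctions or 1 junction placed differently was not tested.

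Across the genome the members were spread over all 16 linkage groups, with 4 on unplaced scaffolds. The linkage group LG1 held 52 (13.8%), beside 15.5% of the circRNAs listed in all groups. The largest gaps, not tested, were on LG13, with 8.22% of members against 5.51%, and on LG2, with 5.57% against 8.72%. By strand, 174 members were on the plus and 203 on the minus strand.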

How the data were processed

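Members, lists and comparisons were chosen with earlier results of these data known. Libraries were directional, from rRNA-depleted, RNase R-digested RNA, and the reference was Amel_4.5, per the labels' protocols. The submitters' processing notes name Bowtie. For the circRNA caller, name and thresholds were not given in the sources used here. Raw counts were deposited by the authors per circRNA and library. The other deposited columns, which their headers call TPM, equal CPM (counts over the library's circRNA total, times 1000000) to within 4.99e-06. Positions are as deposited, and span is end minus start.

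Counts of all 12 libraries were fitted in R 4.3.3 by edgeR 4.0.16 (4 groups, quasi-likelihood test, library totals with TMM, filterByExpr with minimum count 5 and minimum total 15), with Benjamini-Hochberg adjustment over 3215 circRNAs and calls at 0.05. The SE is the log2 fold change over the square root of F. The fit was tested on simulated counts. DESeq2 1.42.0, other scalings, filters, sample subsets and a replicate block were alternatives. Replicate libraries differed by more than sampling noise (chi-square per degree of freedom at least 4.02), so each was counted as 1 sample; this does not tell repeat libraries of 1 RNA from separate queens.

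Members named in the text follow a rule: the 10 highest means, the 3 smallest p per comparison, the 5 highest minima, the loci and ends with most members (ties by level), the 5 with the most abundant virgin partners, the 3 longest and shortest, and 3 on each side of the rule's limits. Further partners were named after their values were seen. The table names no gene, 0 of its IDs matched the gene table, which is of another assembly, and no sequence of this build was used here.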

Additional observations from a re-analysis of the deposited data

How the results depend on the processing

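With 0 of 3 virgin libraries asked for, the rule found 130 members, and with 3 of 3 libraries in each other group 99. Leaving out 1 library gave 221 to 801 members, the most without virgin replicate 1 (801) and virgin replicate 3 (738). It also gave 246 without laying replicate 1, 221 without laying replicate 2 and 235 without released replicate 2. The numbers asked by the rule were kept in these runs. Leaving out a virgin library could therefore only add members, and leaving out any other library could only remove them. The direction of these changes thus says nothing about a particular library. With a count of at least 5 there were 270 members, with a median span of 2139 nt. Chosen after seeing the data, the same numbers asked of laying, caged or released in place of virgin gave 244, 64 and 175. The median span stayed between 2344 and 3002 nt and the share with a shared end between 82.8% and 87.1% without 1 library. Ends within 5 nt gave 84.1%.

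Without a filter edgeR called 2 members in caged vs laying (ame_circ_0003335 and ame_circ_0005652) and 1 in released vs caged (ame_circ_0003335), and each fit without 1 library called 0 in all 3 comparisons. At an unadjusted p under 0.05, added after seeing the data, there were 8, 3 and 6. The log2 fold change of ame_circ_0003335 in released vs caged ranged from -1.58 to 3.75 without 1 library, the lower value without released replicate 1, which carried it.

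Partners called higher in laying ovaries numbered 54 to 87 without 1 library, and partners called lower 7 to 14, with 8 when no filter was used. Libraries whose loss took the lower count to 7 or 8 were laying replicates 1 and 3 and virgin replicates 1 and 3. With library totals as scaling 73 were higher and 18 lower, while the median of all tested moved from 0 to -0.15 on the log2 scale.

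Over all circRNAs, caged vs laying gave 1 call, and 27 with DESeq2, 32 without a filter and 3 each with DESeq2 size factors, library totals, only the groups compared and, added later, library sizes from the tested circRNAs. Without 1 library it gave 0 to 9. Released vs caged gave 10 without a filter and 0 to 2 without 1 library. Released vs laying gave 1 with DESeq2, 11 without a filter and 0 to 3 without 1 library. Laying vs virgin gave 216 lower without a filter, 272 to 448 higher and 220 to 363 lower without 1 library.

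Replicate numbers did not pair the samples: 1 of 18 same-numbered pairs of libraries correlated above 0.1 in their deviations from group means (lowest -0.16), and 2 of 12 libraries correlated best with their own number. With the replicate block 0 members were called in the 3 comparisons, 80 partners were higher and 10 lower in laying ovaries, and released vs laying gave 1 call over all circRNAs.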
